A study of Mus musculus with 17 samples.

Results

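The genes described here handle haem and iron. They are the inducible and the constitutive haem oxygenase (Hmox1, Hmox2), biliverdin reductase B (Blvrb), the heavy and the light ferritin chain (Fth1, Ftl1), the iron exporter ferroportin (Slc40a1), the transferrin receptor (Tfrc), the phagosomal metal transporter NRAMP1 (Slc11a1), ceruloplasmin (Cp) and haemopexin (Hpx). The 10 genes were chosen by name and by no threshold on a value, with earlier results of these data known, and each had a feature of its own among the 31647 features of the count table. They were measured in 17 hearts of wild-type male C57BL/6J mice aged 8 to 11 weeks at surgery. In 9 mice the left anterior descending coronary artery was tied off permanently, and the infarct zone (IZ) was dissected from the left ventricle 5d later. The 8 sham mice had the same operation with the ligation left out, and left ventricular tissue was taken at the same time. Each library came from one mouse, and the tissue was sequenced from its mRNA 3' ends by MACE (Massive Analysis of cDNA Ends), so that a count is a tagged transcript end and not a read along the gene.

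Cells free the iron of haem with haem oxygenase, which opens the haem ring and leaves biliverdin, carbon monoxide and iron. Biliverdin reductases turn biliverdin into bilirubin, ferritin stores the iron as a shell of heavy and light chains, and ferroportin lets iron out of the cell. Transferrin-bound iron enters through the transferrin receptor. Macrophages do most of this work in the body, since they take up dying red and tissue cells and return the iron to plasma, where ceruloplasmin oxidises it and haemopexin binds stray haem.

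Some of these mRNAs carry an iron-responsive element, a hairpin that the iron regulatory proteins bind when iron is scarce. Binding in the 5' UTR blocks translation, while binding in the 3' UTR protects the mRNA from decay, so the element acts on the mRNA level of some members and on the protein output of others. A search of the GENCODE transcripts (build GRCm38) for the loop CAGTGN closed by a stem of 5 base pairs (G-U pairs allowed), with a C just before the 5' arm of the stem, found the hairpin in 4 of the 10 members. The 27 bases around each are given 5′ to 3′ on the mRNA strand, with the 6 bases of the loop in capitals, because they mark the members known to be under this control.
Fth1, 5' UTR in exon 1, chr19:9982733-9982759, plus strand: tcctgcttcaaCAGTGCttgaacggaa
Ftl1, 5' UTR in exon 1, chr7:45459780-45459806, minus strand: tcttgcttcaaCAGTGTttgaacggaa
Slc40a1, 5' UTR in exon 1, chr1:45925466-45925492, minus strand: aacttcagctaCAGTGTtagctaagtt
Tfrc, 3' UTR in exon 19, chr16:32631220-32631246, plus strand: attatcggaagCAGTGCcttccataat
Tfrc, 3' UTR in exon 19, chr16:32631599-32631625, plus strand: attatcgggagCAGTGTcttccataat
Tfrc, 3' UTR in exon 19, chr16:32631664-32631690, plus strand: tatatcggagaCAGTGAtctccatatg
Tfrc, 3' UTR in exon 19, chr16:32631711-32631737, plus strand: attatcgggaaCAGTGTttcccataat
Across the annotation, 0.139% of 20160 genes had such a hairpin in a 5' UTR and 0.604% of 20858 genes had one in a 3' UTR. A match is a description of the letters and the possible stem. Among the genes of the same pathways it was also found in the 5' UTR of Alas2, the erythroid first enzyme of haem synthesis, at chrX:150547459-150547485 (tggttcgtcctCAGTGCagggcaacag), and in the 3' UTR of the iron-sulphur cluster gene Bola3. MACE reads the mRNA end only, so that translation was not measured.

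Sham libraries held 1820809 to 4257919 counts and IZ libraries 1237675 to 4738307. Of 12301 genes that passed the filter on low counts, 69.5% were called between the groups by edgeR's quasi-likelihood test at a Benjamini-Hochberg adjusted p under 0.05, 36.3% higher and 33.1% lower in the IZ, and the median log2 fold change was 0.05. Cell type markers moved with the groups. The summed level of 10 macrophage markers was 445 to 629 CPM (counts relative to the TMM-scaled library size) in sham and 2503 to 6043 CPM in the IZ, with all 10 called higher. The sum of 7 cardiomyocyte markers was 58523 to 70553 CPM in sham and 2651 to 25979 CPM in the IZ, all 7 lower, and that of 6 fibroblast markers was 1436 to 2737 CPM against 10669 to 18691 CPM, with 5 higher. Of 8 neutrophil markers 4 were tested and higher, with sums of 4.62 to 12.2 CPM against 15.9 to 219 CPM. With sham sums this low, the 4 passed the filter only through the IZ libraries, so their calls carry that selection. Ly6g, Ngp and Camp had only 3, 3 and 6 counts over all libraries, with Ly6g at 0 counts in every sham library. Of 6 endothelial markers 3 were lower, with sums of 453 to 886 CPM against 322 to 537 CPM. The 8 erythroid markers, mostly haemoglobin chains, summed to 3119 to 7726 CPM in sham and 2008 to 15377 CPM in the IZ. None of the 6 tested was called by edgeR, and 0 of them had an unadjusted p under 0.05 or were called by DESeq2. Markers of hepatocytes, the main source of plasma Cp and Hpx, had at most 2 counts in any library, and Alb and Fgb were at 0 counts in sham. One library stood apart: IZ replicate 1 had the 25979 CPM of cardiomyocyte markers, where the other IZ libraries had 2651 to 6268 CPM, and the lowest macrophage sum, 2503 CPM. Mitochondrially encoded features took 19.5% of its counts, compared with 4.22% to 6.78% in the other IZ libraries and 22.9% to 32.4% in sham. In bulk tissue, fewer cells of a type and less RNA per cell cannot be told apart, and the part of these shifts in the results on haem and iron genes was not tested.

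Of the 9 members with enough counts to be tested, 5 were called higher in the IZ (Hmox1, Blvrb, Ftl1, Slc40a1, Slc11a1) and 1 lower (Tfrc), against the 69.5% of all tested genes that were called. Hmox2, Fth1 and Cp were not called, and Hpx was under the filter. Hmox1 and Slc11a1 did not reach the filter in every sham library. They passed it only with the IZ libraries, so their calls carry that selection. DESeq2's Wald test called 6 members as well, 5 higher and 1 lower, and 55.5% of 18618 genes. The median log2 fold change of the 9 was 1.33, beside 0.05 over all genes tested. In 4 members (Blvrb, Ftl1, Slc40a1, Slc11a1) every IZ library lay above every sham library, as in 16.6% of all tested genes, and in Tfrc every IZ library lay below, as in 16.5%.

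**Figure D1:**
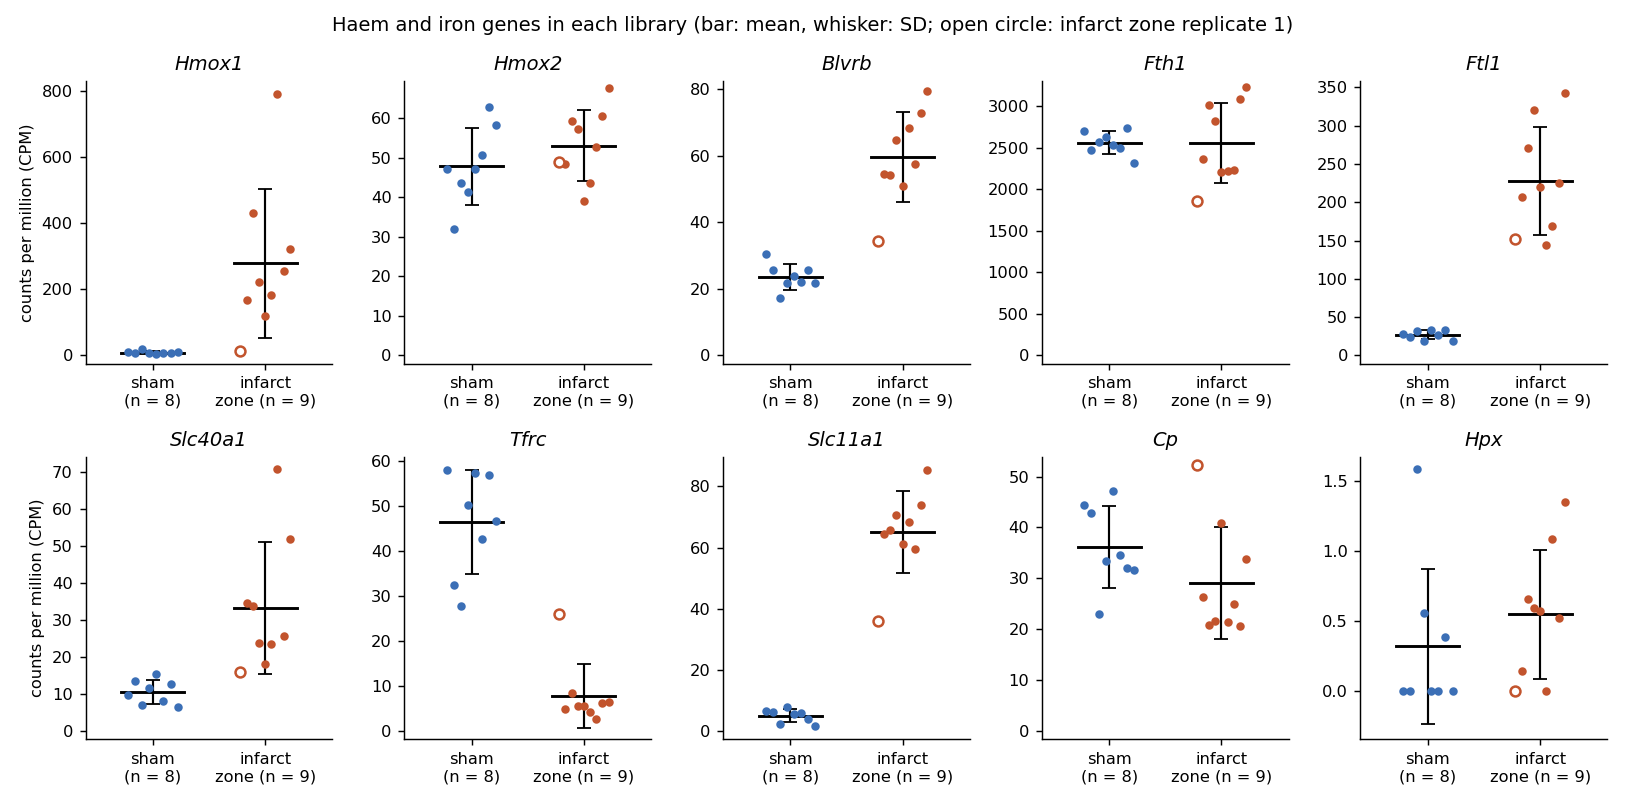
Level of each member in every library, in CPM on a linear axis, for 8 sham and 9 IZ libraries, with the mean as a bar and the SD as whiskers; the open circle is IZ replicate 1. Blvrb, Ftl1, Slc40a1 and Slc11a1 show no overlap of the groups with the IZ above, Tfrc none with the IZ below, Hmox1 overlaps only through replicate 1 at 12.3 CPM, and Hmox2, Fth1, Cp and Hpx overlap.

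Hmox1, the stress-inducible haem oxygenase, had the largest log2 fold change of the 9 tested members. Its level in sham was 4.14 CPM at the lowest, 7.08 CPM at the median and 18.2 CPM at the highest, on 8 to 23 counts. IZ libraries had 12.3 CPM at the lowest, 222 CPM at the median and 790 CPM at the highest, on 34 to 2618 counts. Thus 8 of 9 IZ libraries lay above every sham library, while IZ replicate 1, at 12.3 CPM, lay inside the sham range. The mean rose from 8.64 ± 4.33 CPM (SD, n = 8) to 278 ± 226 CPM (SD, n = 9), a log2 fold change of 5.04 ± 0.54 (SE), or 32.9-fold (edgeR, adjusted p = 2.14e-08). Without IZ replicate 1 the mean of the IZ was 311 ± 217 CPM (SD, n = 8) and the log2 fold change 5.17. Among the other 8 IZ libraries Hmox1 still ran from 118 to 790 CPM, a 6.67-fold range. The highest value, in replicate 7, stood beside the highest neutrophil marker sum, 219 CPM. That library also had the lowest macrophage marker sum of these 8, 4059 CPM, and the part of either was not tested.

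Hmox2, the constitutive haem oxygenase, showed no such shift. Sham libraries had 31.9, 47.1 and 62.8 CPM (lowest, median, highest) and IZ libraries 39.1, 52.6 and 67.6 CPM. The groups overlapped over most of their range, and only 1 IZ library lay above all sham libraries. The log2 fold change was 0.14 ± 0.13 (edgeR, adjusted p = 0.336). Cdip1 overlaps Hmox2 on the opposite strand and Gm15859 on the same strand, with 1175 and 46 counts over all libraries, so some counts may be shared between them.

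Blvrb, which reduces biliverdin and flavins, rose in the IZ. Its level in sham was 17.4, 22.9 and 30.7 CPM (lowest, median, highest), and in the IZ 34.4, 57.5 and 79.4 CPM. All 9 IZ libraries lay above all sham libraries, the lowest being replicate 1. The log2 fold change was 1.33 ± 0.15, or 2.51-fold (edgeR, adjusted p = 3.74e-08). Blvra, the reductase of the main biliverdin isomer in adults, rose by a log2 fold change of 0.96 ± 0.15 (adjusted p = 8.15e-06), from 22.8 ± 4.52 CPM (SD, n = 8) to 44.2 ± 10.8 CPM (SD, n = 9), with 8 of 9 IZ libraries above all sham libraries.

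The ferritin chains parted. Fth1, the heavy chain with the ferroxidase centre, had 2315, 2554 and 2742 CPM in sham (lowest, median, highest), and 1855, 2361 and 3232 CPM in the IZ. The IZ libraries spread on both sides of the sham range, with 4 above all sham libraries and 4 below all of them. Means were 2559 ± 137 CPM (SD, n = 8) and 2557 ± 484 CPM (SD, n = 9), and the log2 fold change of -0.0010 ± 0.16 did not pass the test (edgeR, adjusted p = 0.996). The coefficient of variation of Fth1 was 5.34% among sham libraries and 18.9% among IZ libraries, or 16.4% without replicate 1. The value depends on the scaling of the libraries, as given below with the settings.

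Ftl1, the light chain that helps the iron core form, had 18.9, 27.2 and 33.1 CPM in sham (lowest, median, highest). In the IZ it had 144, 219 and 342 CPM, so that the lowest IZ library was well above the highest sham library. The mean rose from 26.9 ± 5.82 CPM (SD, n = 8) to 228 ± 70.8 CPM (SD, n = 9), a log2 fold change of 3.08 ± 0.19, or 8.46-fold (edgeR, adjusted p = 6.05e-12). The Ftl1 value carries an uncertainty, because 9 other features, processed pseudogenes among them, have 95.4% to 99.4% of the bases of its transcript end over aligned stretches of 109 to 500 bases. The largest, Ftl1-ps1, is 99.4% identical over 500 bases and took 919 counts over the sham and 15901 over the IZ libraries, more than Ftl1 itself in each group. Ftl1 took 26.1 ± 4.52% (SD, n = 8) of the counts of these 10 features in sham and 27.7 ± 4.47% (SD, n = 9) in the IZ. Summed, the 10 features had 104 ± 19.0 CPM in sham and 816 ± 179 CPM in the IZ, and with them merged the log2 fold change was 2.98 ± 0.17 (edgeR, adjusted p = 1.46e-12). Merging the near-identical features was decided after the data were seen. For Fth1 the only such feature, Gm6977, left 98.5 ± 0.683% of the counts in sham and 97.5 ± 0.519% in the IZ to Fth1, and the merged log2 fold change was 0.01 (adjusted p = 0.946).

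The mRNAs of the iron exporter and of the transferrin receptor moved in opposite directions, while iron export and import themselves were not measured. Slc40a1, the only known cellular iron exporter of mammals, had 6.67, 10.8 and 15.5 CPM in sham (lowest, median, highest) and 15.9, 25.8 and 71.0 CPM in the IZ. The groups did not overlap, although the lowest IZ library, replicate 1, was close to the highest sham library. Its log2 fold change was 1.61 ± 0.28, or 3.04-fold (edgeR, adjusted p = 1.82e-05). The spread among IZ libraries was wide, with a coefficient of variation of 53.7% compared with 30.3% in sham, and replicate 7, which had the highest Hmox1, also had the highest Slc40a1.

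Tfrc, whose 4 printed hairpins lie in the 3' UTR, was the member that fell. Sham libraries had 27.7, 48.4 and 58.0 CPM (lowest, median, highest) and IZ libraries 2.71, 5.66 and 26.1 CPM. All 9 IZ libraries were below all sham libraries, and the 26.1 CPM of replicate 1 was near the lowest sham value while the other IZ libraries had 2.71 to 8.41 CPM. The mean fell from 46.5 ± 11.6 CPM (SD, n = 8) to 7.81 ± 7.03 CPM (SD, n = 9), a log2 fold change of -2.58 ± 0.30, or 5.99-fold lower (edgeR, adjusted p = 5.54e-08). Without replicate 1 the IZ mean was 5.52 ± 1.66 CPM (SD, n = 8) and the log2 fold change -3.06.

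Slc11a1, which moves iron out of the phagosome and is made mainly by macrophages and neutrophils, rose in every IZ library. Its level in sham was 1.67, 5.79 and 7.81 CPM (lowest, median, highest), on 3 to 14 counts, and in the IZ 35.9, 65.6 and 85.5 CPM. Even replicate 1, the lowest, was several times above the highest sham library. The log2 fold change was 3.69 ± 0.21, or 12.9-fold (edgeR, adjusted p = 1.84e-12). Without replicate 1 the IZ values of Slc11a1 spanned a 1.43-fold range, the narrowest among the 9 tested members. Slc11a2, the endosomal iron transporter DMT1 of most cells, had means of 18.9 ± 5.30 CPM (SD, n = 8) and 18.3 ± 2.61 CPM (SD, n = 9), with a log2 fold change of -0.05 ± 0.15 (adjusted p = 0.794). Its direction turned under several settings.

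The plasma proteins gave no call. Cp, a copper ferroxidase, had 23.0, 34.0 and 47.1 CPM in sham (lowest, median, highest) and 20.7, 24.9 and 52.2 CPM in the IZ. The groups overlapped, with 4 IZ libraries below and 1, replicate 1, above all sham libraries. The log2 fold change was -0.33 ± 0.19 (edgeR, adjusted p = 0.131), and the outcome depended on the setting. Without IZ replicate 1 Cp was called lower at -0.52 (edgeR, adjusted p = 0.0052). With the replicate number as a block it was also called lower, at -0.38 (edgeR, adjusted p = 0.0241). With total counts alone it was called higher, as given below. Hps3 overlaps Cp on the opposite strand and had 402 counts over all libraries. Hpx reached at most 2 counts in a sham and 4 in an IZ library, too few for a test, and no difference was detectable at this depth.

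**Figure D2:**
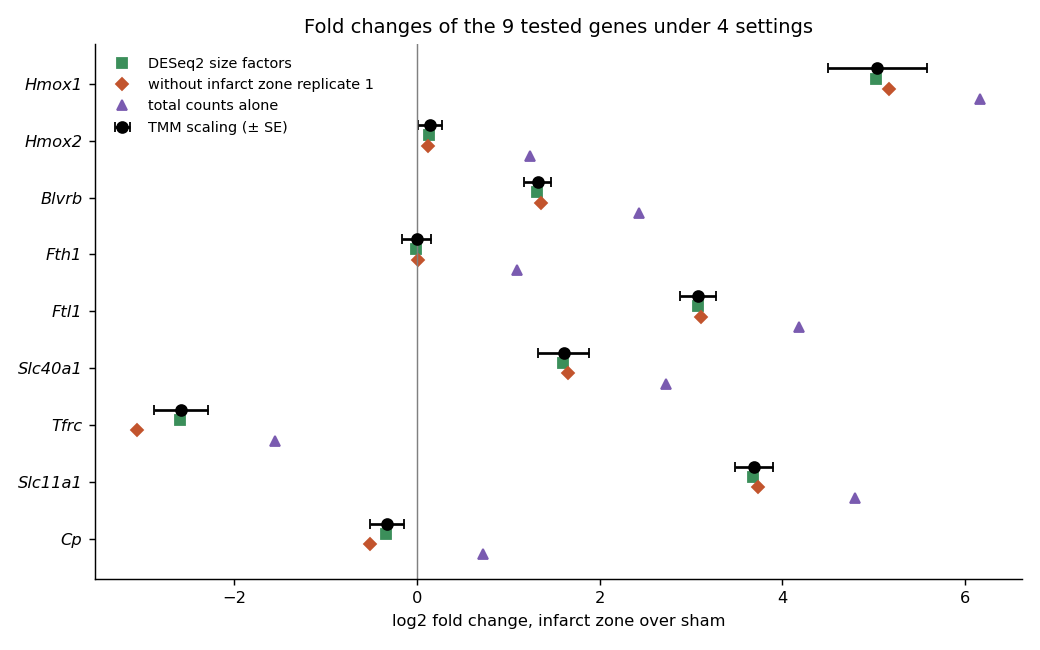
log2 fold change of IZ over sham for the 9 tested members, with the SE as a bar for the TMM-scaled fit, and the values with DESeq2's size factors, without IZ replicate 1 and with total counts alone as scaling. Hmox1 at 5.04, Slc11a1 at 3.69 and Ftl1 at 3.08 lie farthest to the right and Tfrc at -2.58 farthest to the left; total counts shift all genes to the right, by 1.09 at the median of all genes.

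Scaling by total counts alone, with no correction for composition, moved the median log2 fold change of all genes by 1.09 and the share of called genes that were higher from 52.3% to 85.8%. On that scale Hmox2 was at 1.23, Fth1 at 1.09 and Cp at 0.73, all called higher (edgeR, adjusted p = 2.26e-08, 2.94e-06 and 2.45e-04), so that 8 members were higher and 1 lower. The values of Hmox2 and Fth1 differ from the shift itself by less than 0.2 on the log2 scale. Tfrc remained lower at -1.55, and the 5 members that were higher with TMM scaling stayed higher, from Blvrb at 2.43 to Hmox1 at 6.17.

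Ratios of members within a library do not depend on how libraries are scaled. The pairs were set by role, 5 in all, on log2 counts with 1 added, and tested by an exact two-sided permutation test of the difference in means over the 24310 splits, whose smallest p is 8.23e-05. The ratio of Hmox1 over Hmox2 had a mean of -2.48 ± 0.70 (SD, n = 8) in sham and 1.83 ± 1.58 (SD, n = 9) in the IZ, a difference of 4.32 (exact permutation p = 1.65e-04, adjusted p = 2.74e-04). Of the IZ libraries 8 of 9 lay above all sham libraries, and replicate 1, at -1.96, lay within the sham range of -3.35 to -1.22.

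The ferritin chains gave the tightest contrast. Fth1 over Ftl1 ran from 6.26 to 7.07 in sham and from 3.14 to 3.94 in the IZ on the log2 scale, with no overlap, and here replicate 1 sat among the other IZ libraries at 3.61. The difference was -3.05 (exact permutation p = 8.23e-05, the smallest the test can give; adjusted p = 2.06e-04). With near-identical features merged it was -2.96.

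Exporter over transferrin receptor mRNA, Slc40a1 over Tfrc, ran from -2.71 to -1.22 in sham and from -0.70 to 4.46 in the IZ, again with no overlap. Its difference of 4.24 also had the smallest possible p (exact permutation p = 8.23e-05, adjusted p = 2.06e-04), and replicate 1 was the lowest IZ library. The remaining 8 IZ libraries had ratios of 1.58 to 4.46. Hmox1 rose by more than the genes next to it in the pathway: the difference was 2.99 for Hmox1 over Slc40a1 (exact permutation p = 4.11e-04, adjusted p = 4.11e-04) and -3.17 for Blvrb over Hmox1 (exact permutation p = 2.47e-04, adjusted p = 3.09e-04). In both ratios 8 of 9 IZ libraries lay outside the sham range and replicate 1 lay inside it.

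**Figure D3:**
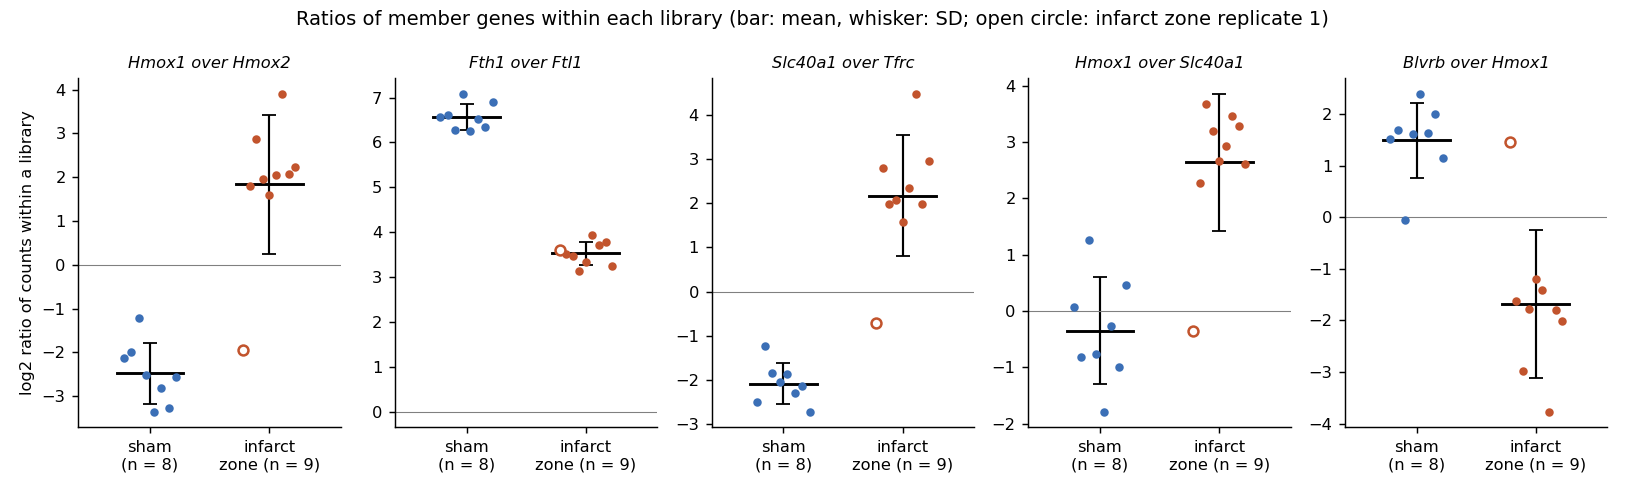
log2 ratio of the counts of each pair of members within each library, for 8 sham and 9 IZ libraries, with mean and SD; the open circle is IZ replicate 1. Fth1 over Ftl1 falls from 6.57 to 3.53 at the mean with little spread in either group, and replicate 1 lies near sham in the 3 ratios that hold Hmox1.

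Members were next compared with each other among the 9 IZ libraries, as 36 pairs of log2 CPM values with an exact permutation test of pairings. After adjustment over the 36 pairs, 2 passed: Blvrb with Slc11a1 (Pearson's r = 0.954, exact permutation p = 1.82e-04, adjusted p = 0.00655; Spearman's rho = 0.867, exact permutation p = 0.00451, adjusted p = 0.0812) and Fth1 with Slc11a1 (r = 0.816, exact permutation p = 9.76e-04, adjusted p = 0.0176; rho = 0.833, exact permutation p = 0.00827, adjusted p = 0.0992). No pair passed by Spearman's rho. Without the 2 libraries farthest from the median of the first gene, r was 0.830 and 0.732, and 0 pairs passed the adjusted test while 10 had an unadjusted p under 0.05. Without replicate 1 the values were r = 0.891 (adjusted p = 0.0371) and r = 0.780 (adjusted p = 0.134), so the second lost its call with 8 libraries (exact permutation p = 0.0149 unadjusted), and Hmox2 with Fth1 passed (r = 0.900, adjusted p = 0.0371). Hmox1 with Slc40a1 did not pass (r = 0.778, exact permutation p = 0.0106, adjusted p = 0.0708; rho = 0.800, exact permutation p = 0.0138, adjusted p = 0.0996; r = 0.840 without replicate 1).

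**Figure D4:**
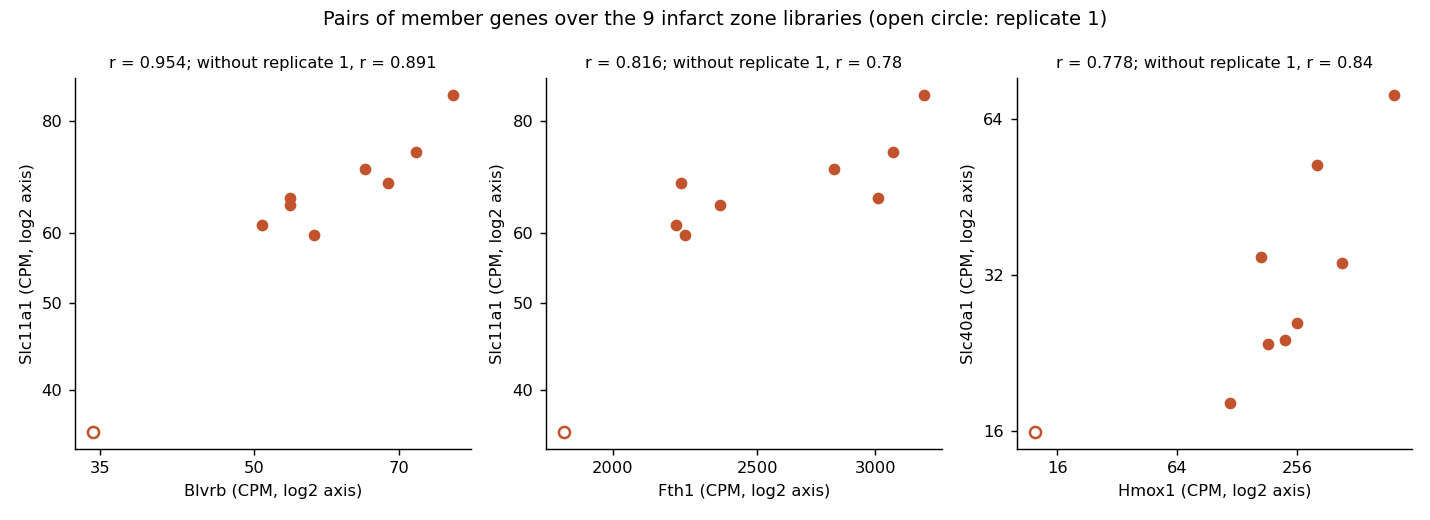
Levels of 3 pairs of members over the 9 IZ libraries, in CPM on log2 axes, each point a library and the open circle replicate 1. Blvrb and Slc11a1 (r = 0.954) line up with and without replicate 1, Fth1 and Slc11a1 (r = 0.816) less closely, and Hmox1 and Slc40a1 (r = 0.778) share their highest library.

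The genes whose log2 CPM followed Hmox1 most closely over the 9 IZ libraries, of 9153 genes whose mean in the IZ reached 10 CPM, were Ms4a6d (r = 0.978), Tm9sf3 (r = 0.973) and B4galt1 (r = 0.972), given as a description. Without replicate 1, r was 0.917, 0.906 and 0.936. The 9 points share their library scaling and, as shown above, differ in their cell type markers. Ms4a6d, a membrane protein gene of macrophages, itself rose by a log2 fold change of 4.73 ± 0.33 (edgeR, adjusted p = 2.91e-11). It had 1 to 16 counts in sham libraries and passed the filter only through the IZ libraries.

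The promoter windows of the members, from 250 bases before to 50 bases after the start of the gene as given by RefSeq on GRCm38.p6, were searched on both strands for TGACNNNGC, the core of the antioxidant response element through which NRF2 and BACH1 act. Windows were found for 8 members, 14 in all, and 1 member, Hpx, held a match. No window was used for Hmox1 and Slc40a1, so their promoters were not searched. Over all genes with a window 13.99% had one, and the element may lie outside such short windows.

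Of 85 other genes of haem and iron pathways, in 9 lists, 68 were tested and 48 were called by edgeR's quasi-likelihood test, 19 higher and 29 lower, a share of 70.6% beside the 69.5% of all genes. With total counts alone 43 were higher and 14 lower. As background for the counts of each list below, 36.3% of all tested genes were called higher and 33.1% lower with TMM scaling. Haem transport to and from organelles and bilirubin formation had 4 of 6 tested genes higher and 1 lower, with a list median of 0.56. The plasma membrane haem exporter Flvcr1 rose most (1.61 ± 0.29, adjusted p = 3.78e-05). It had 3 to 14 counts in sham libraries and passed the filter only through the IZ libraries. Slc48a1, which moves haem out of the phagolysosome, rose slightly (0.36 ± 0.15, adjusted p = 0.0344), a call that was lost in 5 of the 17 fits that left out 1 library (IZ replicate 9 and sham replicates 1, 2, 3 and 8), with values from 0.30 to 0.43. The mitochondrial transporter Abcb10 fell (-1.64 ± 0.20, adjusted p = 1.88e-07).

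Of the genes of haem synthesis, 7 of 9 were called lower and none higher by edgeR, with a list median of -1.19. The called share was 77.8%, where 69.5% of all tested genes were called and 33.1% were called lower. DESeq2 also called 7, and with total counts alone 3 were higher and 2 lower, with a median of -0.11. Alas1, the rate-limiting enzyme outside red cells, fell most, from 138 ± 34.1 CPM (SD, n = 8) to 33.9 ± 20.2 CPM (SD, n = 9), a log2 fold change of -2.03 ± 0.23 (edgeR, adjusted p = 5.32e-08). Replicate 1 was the one IZ library that overlapped with sham, and without it the value was -2.39. Alas2, the erythroid enzyme, had the highest value of the list, 0.50 ± 0.32 (adjusted p = 0.178), and was called without IZ replicate 2 (0.66, adjusted p = 0.0437). Mitochondrial iron import and iron-sulphur cluster assembly had 12 of 15 genes lower by edgeR and a median of -1.45, a called share of 80% beside the same 69.5%. With total counts alone 8 were lower and 3 higher. Bola3 fell from 228 ± 14.0 CPM (SD, n = 8) to 46.4 ± 22.8 CPM (SD, n = 9), a log2 fold change of -2.30 ± 0.20 (edgeR, adjusted p = 5.30e-10). The iron importer mitoferrin-1, Slc25a37, had a value of 0.43 ± 0.20 that did not pass (edgeR, adjusted p = 0.0562) but passed in 5 of the 17 fits that left out 1 library. It also passed with a minimum mean of 50 counts (0.45), no filter on low counts (0.48), upper quartile factors (0.54) and total counts alone (1.53). The fall of both lists stood beside the lower cardiomyocyte marker sum, and its part in the fall was not tested.

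Scavenging of haemoglobin and haem had 3 tested genes. Haptoglobin (Hp), which binds free haemoglobin, rose by 4.02 ± 0.65 (edgeR, adjusted p = 8.56e-06), with at most 8 counts in a sham library and 6.52, 24.0 and 118 CPM in the IZ (lowest, median, highest). Hp passed the filter only through the IZ libraries. Neutrophils also carry Hp mRNA, and the neutrophil marker sum was higher in the IZ as given above; its part in the rise was not tested. Cd163, the macrophage receptor for haptoglobin-haemoglobin complexes, had 5.18, 8.25 and 15.8 CPM in sham and 0.73, 2.71 and 11.5 CPM in the IZ, and its log2 fold change of -1.09 ± 0.41 was called (adjusted p = 0.0222) but came to 0.0020 with total counts alone. Of the 17 fits that left out 1 library, 15 tested Cd163, with edgeR's adjusted p at most 0.0492. It was not tested without IZ replicate 2 or 3. Lrp1, the haemopexin receptor, was the middle value of the list at 1.85 ± 0.16 (adjusted p = 1.08e-09). Lcn2, which binds bacterial iron carriers, reached 14 counts in one sham library and 28 in one IZ library and was not tested.

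Iron uptake and reduction had 4 of 7 tested genes higher and 1 lower by edgeR. The 17 fits that left out 1 library gave 2 to 4 higher. Without IZ replicate 1, for example, 2 of 5 were higher, since Steap2 and 1 other gene no longer passed the filter. Steap2, a ferric reductase, rose from 1.31 ± 1.13 CPM (SD, n = 8) to 12.6 ± 7.03 CPM (SD, n = 9), a log2 fold change of 3.13 ± 0.45 (edgeR, adjusted p = 1.57e-06). It had at most 5 counts in a sham library and passed the filter only through the IZ libraries. Of the 17 fits that left out 1 library, 9 tested Steap2. Steap4, of the same family, fell by 0.87 ± 0.21 on the log2 scale (edgeR, adjusted p = 7.80e-04) but was at 0.19 with total counts alone. Transferrin itself (Trf) rose by 1.59 ± 0.12 (adjusted p = 1.15e-10). In iron sensing and hepcidin control, 1 of 9 genes was higher and 3 were lower by edgeR, with a median of 0.04; with total counts alone 7 were higher and 1 lower. The mRNAs of the iron regulatory proteins that bind the printed hairpins were not called: Aco1 had 0.04 ± 0.11 (edgeR, adjusted p = 0.793) and Ireb2 0.20 ± 0.13 (edgeR, adjusted p = 0.181). Ireb2 was called with upper quartile factors (0.32, edgeR, adjusted p = 0.0412), and both were called higher with total counts alone (1.13 and 1.30). Binding to the hairpins was not measured. Hfe2, the muscle and liver gene for hemojuvelin, fell by 3.43 ± 0.31 on the log2 scale (adjusted p = 1.40e-09), while Smad1, which carries the BMP signal to hepcidin in the liver, rose by 0.82 ± 0.16 (adjusted p = 1.06e-04). Ferritin loading and turnover had 3 tested genes, none called by edgeR and 0 with an unadjusted p under 0.05, while DESeq2 called 1 (Pcbp2), and with total counts alone all 3 were higher. Ncoa4, which takes ferritin to the lysosome, had 26.1 ± 3.06 CPM (SD, n = 8) and 25.7 ± 5.00 CPM (SD, n = 9), and the iron chaperone Pcbp2 had -0.19 ± 0.09 (adjusted p = 0.0742), with a call without IZ replicate 1 (-0.22, adjusted p = 0.0243) or sham replicate 8 (-0.22, adjusted p = 0.0422).

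Of 6 regulators of Hmox1 transcription 2 were called higher and 2 lower, or 6 and 0 with total counts alone. NRF2 (Nfe2l2), which activates the gene, had 0.31 ± 0.12 (edgeR, adjusted p = 0.0219), a call lost without sham replicate 3 (0.27, adjusted p = 0.0518) or sham replicate 7 (0.28, adjusted p = 0.0521). BACH1, the repressor that haem releases from DNA, rose at the mRNA level from 19.2 ± 2.94 CPM (SD, n = 8) to 32.8 ± 6.53 CPM (SD, n = 9), by 0.78 ± 0.14 (adjusted p = 3.77e-05). Mafk, a partner of both, fell by 0.51 ± 0.20 on the log2 scale (adjusted p = 0.0260), a call lost with upper quartile factors, with no filter on low counts and in 5 of the 17 fits that left out 1 library (IZ replicates 4, 6, 7 and 8 and sham replicate 5), and turned to 0.55 with total counts alone. Of 10 classical NRF2 target enzymes, 6 were higher and 2 lower, with a median of 0.72. The called share was 80%, where 69.5% of all tested genes were called and 36.3% were called higher. The same counts held in all 17 fits that left out 1 library, while total counts alone gave 8 higher and 2 lower. G6pdx, the first enzyme of the pentose phosphate pathway, rose most, from 3.93 ± 1.63 CPM (SD, n = 8) to 33.0 ± 9.07 CPM (SD, n = 9), a log2 fold change of 3.05 ± 0.24 (adjusted p = 1.33e-10). G6pdx had 3 to 17 counts in sham libraries and passed the filter only through the IZ libraries. Nqo1, which like Hmox1 is a common readout of NRF2, went the other way, from 48.5 ± 6.89 CPM (SD, n = 8) to 14.0 ± 10.8 CPM (SD, n = 9), a log2 fold change of -1.83 ± 0.27 (adjusted p = 2.83e-06).

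**Figure D5:**
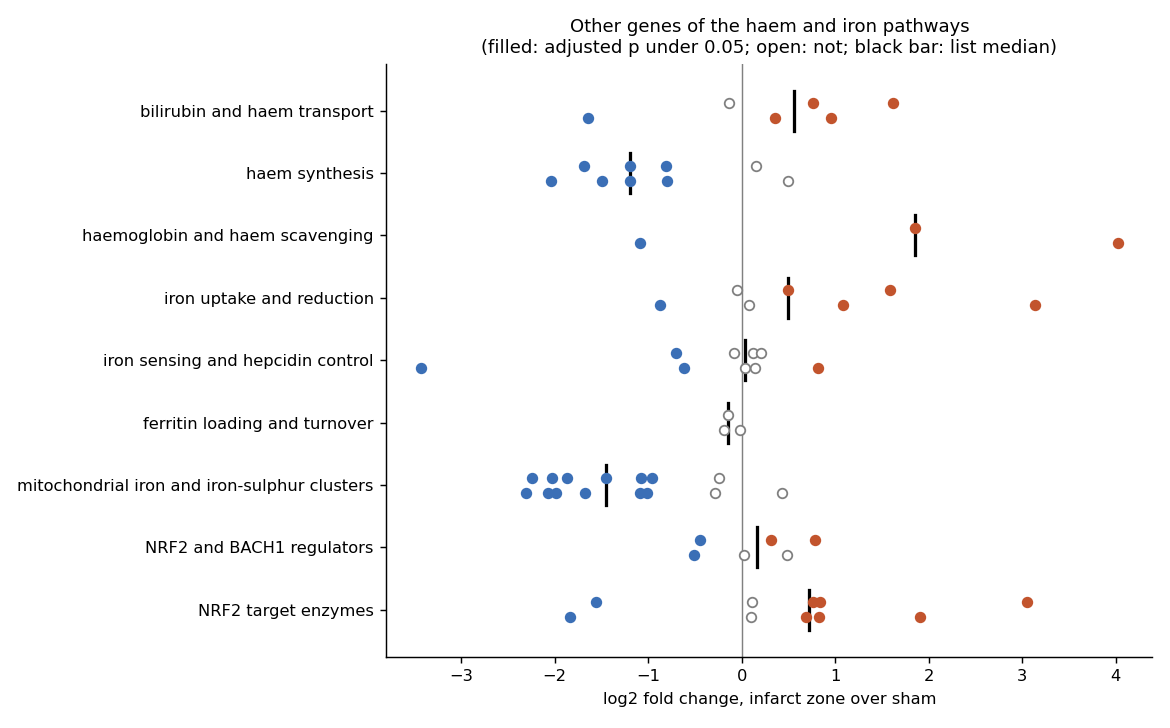
log2 fold change of IZ over sham for the 68 tested genes of the 9 pathway lists, each point a gene, filled where edgeR's adjusted p was under 0.05 (orange higher, blue lower) and open where it was not, with the list median as a black bar. The medians of haem synthesis (-1.19) and mitochondrial iron and iron-sulphur clusters (-1.45) lie to the left of 0, and those of haemoglobin and haem scavenging (1.85) and NRF2 target enzymes (0.72) to the right.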

How the data were processed

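Hearts of 17 mice were analysed, 8 sham left ventricles and 9 infarct zones, grouped by the labels. The authors sequenced MACE 3' libraries with molecular identifiers, trimmed reads with Cutadapt and counted them per gene with HTSeq on mm10; Bowtie2 is named in the submitters' processing notes. The deposited values are raw counts, and the annotation release and the treatment of multi-mapping reads are not given in the sources used here. Of the features, 35 were merged groups of overlapping genes with 0.152% of the counts; they stayed in library sizes and tests. No library was a copy of another (chi-square per degree of freedom of at least 2.41).

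Differential expression used edgeR 4.0.16 (R 4.3.3): filterByExpr with a minimum of 10 counts, TMM scaling, the two-sided quasi-likelihood F-test without covariates, and Benjamini-Hochberg adjustment over all 12301 genes tested. CPM uses TMM-scaled library sizes, and log2 CPM a prior count of 1. The SE was derived from the F statistic. Exact permutation tests of the ratios used SciPy 1.17.1, and those of the pairs went through every pairing of libraries with NumPy 2.4.6. Nothing in the labels besides the numbering says how the libraries were batched; p-values measure the spread between these mice. DESeq2 1.42.0, other scalings and filters, a replicate block and leaving out each library were the alternatives. Near-identical features were found with BLAST 2.17.0 on the last 500 bases of transcripts (at least 95% identity over 100 bases), and merging them was an alternative chosen after seeing the data. The scripts were tested on simulated data.

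The members and lists were chosen with earlier results of these data known. Named genes are the members, the highest and the lowest tested gene of each pathway list, 11 further pathway genes named whatever their values (Blvra, Slc48a1, Flvcr1, Cd163, Lcn2, Aco1, Ireb2, Ncoa4, Slc11a2, Nfe2l2 and Bach1), and the 3 genes most like Hmox1 among infarct zones; Trf and Lrp1 were named after their values were seen. Of 85 pathway genes, 84 had a feature. Gene models are GENCODE on GRCm38. Promoter windows are from RefSeq; no window was used for Hmox1 and Slc40a1. Total counts limit the precision of genes with few counts: 3 counts are on average 1.79 CPM in a sham and 1.06 CPM in an infarct zone library.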

Additional observations from a re-analysis of the deposited data

Results flagged for a closer look

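In 44 groups of values tested for a single library far from the others, 10 had one by Dixon's criterion at 95%, where chance gives about 1 in 20. Of these, 5 were infarct zone replicate 1: Tfrc at 26.1 CPM (others 2.71 to 8.41), the cardiomyocyte marker sum at 25979 CPM (others 2651 to 6268), and the log2 ratios of Hmox1 over Hmox2 at -1.96 (others 1.58 to 3.89), Hmox1 over Slc40a1 at -0.36 (others 2.27 to 3.67) and Blvrb over Hmox1 at 1.46 (others -3.77 to -1.21). Sham replicate 3 was high in 4: Hmox1 at 18.2 CPM (others 4.14 to 10.4), Hpx at 1.58 CPM (others 0 to 0.558), the macrophage marker sum at 629 CPM (others 445 to 528) and the hepatocyte marker sum at 1.58 CPM (others 0 to 0.518). Both values of 1.58 CPM rest on 2 counts. Infarct zone replicate 9 had the highest erythroid marker sum, 15377 CPM (others 2008 to 6410). The measures share libraries and genes and are not independent.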

How the results depend on the processing

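Hmox1, Blvrb, Ftl1, Slc40a1, Slc11a1 and Tfrc kept direction and call under every alternative run, as did the 5 ratios. With total counts alone Hmox2 was at 1.23 (called), Fth1 at 1.09 and Cp at 0.73 (both turned), as were Cd163 (0.0020), Steap4 (0.19), Ncoa4 (1.08), Pcbp2 (0.90), Mafk (0.55) and Slc11a2 (1.04), where all genes shifted by 1.09 at the median. Over the 12301 genes tested, the median shift of a gene was 0.058 with no filter on low counts and 0.11 with upper quartile factors. Fth1, near 0, turned sign with DESeq2 (2.5e-04), a minimum mean of 50 counts (0.021), near-identical features merged (0.013), no filter (0.057), mitochondrial features removed (1.8e-04) and upper quartile factors (0.11), none of them called. Ncoa4 turned with the minimum mean (0.0090), no filter (0.046) and upper quartile factors (0.10), and Slc11a2 with no filter (0.012) and upper quartile factors (0.063), likewise without a call. Leaving out 1 library gave -0.031 to 0.044 for Fth1, -0.52 to -0.25 for Cp, -0.063 to 0.050 for Ncoa4 and -0.11 to 0.089 for Slc11a2; Cp was called only without infarct zone replicate 1. Genes called numbered 8544, and 5239 with the minimum mean, where fewer genes are tested; no filter gave 10664 and total counts 10727. The related pairs in the infarct zone numbered 2, 11 with total counts alone and 0 without the 2 libraries farthest from the median. Causes were not tested. Genes at under 10 counts per library, such as Hpx, are limited by depth.

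Sham and infarct zone share replicate numbers 1 to 8, but the labels tie nothing else to them, and the deviations of same-numbered libraries correlated at r = -0.22 to 0.13, with 1 of 8 pairs matching best on its own number. With the replicate block, which drops infarct zone replicate 9, 8079 genes and 7 members were called; Hmox1 was at 4.61, Cp passed at -0.38 (edgeR, adjusted p = 0.0241), and Slc48a1 lost its call at 0.28.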

Other observations

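Genes under the filter held values outside the tests, chosen here after they were seen. Steap1, a ferric reductase of the same family as Steap2, was at 0 counts throughout sham but had 2 to 59 in infarct zones, a mean of 6.02 ± 5.25 CPM (SD, n = 9). Hamp, the gene of the iron hormone hepcidin, ranged up to 8 counts in sham, 2.32 ± 2.10 CPM (SD, n = 8), and up to 2 in infarct zones, 0.0997 ± 0.165 CPM (SD, n = 9). Flvcr2, a haem and choline transporter, had at most 15 counts in a sham library and at most 3 in an infarct zone library.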
